A study of Mus musculus with 11 samples.

Results

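The hexosamine pathway was followed through 8 transcripts, Gfpt1, Gfpt2, Gnpnat1, Pgm3, Uap1, Uap1l1, Nagk and Ogt, in hearts of female mice. Each was found by matching the RefSeq accession of its row to its symbol, and all 8 were among the 21878 rows of the deposited expression table. The hearts compared were 5 that model polycystic ovary syndrome (PCOS), from females given prenatal anti-Müllerian hormone (AMH), and 6 controls given prenatal phosphate-buffered saline (PBS). All 11 samples carry the wild-type genotype in the labels, and strain, age, litter and dose were not given in the sources used here. Whether 1 mouse stands behind each sample is not stated either, and a p-value here covers only how these samples scatter, part of which may be technical.

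The pathway turns a small share of the fructose 6-phosphate of glycolysis, together with glutamine, into UDP-N-acetylglucosamine (UDP-GlcNAc), the sugar donor for N-glycans, hyaluronan, heparan sulphate and the O-GlcNAc mark on cytosolic and nuclear proteins. Gfpt1 and Gfpt2 encode the amidotransferases of the first, rate-limiting step, Gnpnat1 the acetyltransferase, Pgm3 the mutase and Uap1 the pyrophosphorylase that joins the sugar to UTP. Uap1l1 is the paralog of Uap1 and its enzyme activity is less well described. Nagk returns N-acetylglucosamine from degraded glycans to the pathway, and Ogt transfers the O-GlcNAc group to proteins. In the heart, O-GlcNAc is known to rise with nutrient excess, diabetes and pressure load.

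Levels are FPKM, that is, fragments per kilobase of a transcript, divided by library size, so they may be compared between genes as far as the transcript length used for each is right. Whole reads were recovered from the steps of the FPKM values and summed to between 11866531 and 14346912 per library. Cardiomyocyte markers were abundant in every library, with 6 of 6 detected and a summed level of 32370 to 35210 FPKM in PCOS hearts and 29010 to 33410 FPKM in control hearts. Control replicate 6 stood apart through liver transcripts: its 6 hepatocyte markers summed to 1421 FPKM, against 3.22 to 5.37 FPKM in PCOS hearts and at most 11.8 FPKM in the other controls. Control replicates 2 and 5 also stood apart, with Irs2, an adaptor of the insulin receptor, at 7.50 and 8.71 FPKM, against 0.822 to 2.36 FPKM in PCOS hearts and at most 1.89 FPKM in the other controls.

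The pathway was chosen by the PCOS-control difference of Uap1l1, which was already among the called rows of these same libraries, and the other 7 members were then drawn around it. The difference of Uap1l1 is therefore given as a description and not as a test. Of the 8 members, Uap1l1 alone was called in the limma fit, where 15 of 10891 tested rows, or 0.138%, passed an adjusted p of 0.05 (32 rows without control replicate 6). Of the 8, 5 had a log2 difference above 0, as 50.6% of all tested rows did, 1 had a difference of at least 0.4 either way (1.74% of rows), and none had all PCOS hearts below all controls (0.248% of rows). Nothing is read from these counts, since Uap1l1 entered through the same comparison.

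The promoters of 3 members are shown because they belong to the pathway's entry and exit: the paralogous pair that starts it, whose levels spread differently between hearts, and Uap1, which completes UDP-GlcNAc. The RefSeq table of GRCm38.p6 had entries for 6 of the 8 members; Uap1l1 and Gnpnat1 were not matched. Each stretch is the 250 bases before the annotated start, 5′ to 3′. They lie at chr6:87042596-87042845 on the plus strand for Gfpt1, at chr11:49793905-49794154 on the plus strand for Gfpt2 and at chr1:170174965-170175214 on the minus strand for Uap1. Capitals mark 3 motifs on either strand, and where matches overlap the capitals run together. The first is the GC box GGGCGG. The second is the binding element of factor NF-Y, CCAAT, called below by that name. The third is the core of the box bound by the TATA-binding protein, written TATAA.
Gfpt1: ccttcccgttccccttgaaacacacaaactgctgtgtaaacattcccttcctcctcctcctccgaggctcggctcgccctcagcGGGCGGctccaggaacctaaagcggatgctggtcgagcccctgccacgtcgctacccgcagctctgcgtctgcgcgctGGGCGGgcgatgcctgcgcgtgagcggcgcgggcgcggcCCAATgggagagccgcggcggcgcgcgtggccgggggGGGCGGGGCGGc
Gfpt2: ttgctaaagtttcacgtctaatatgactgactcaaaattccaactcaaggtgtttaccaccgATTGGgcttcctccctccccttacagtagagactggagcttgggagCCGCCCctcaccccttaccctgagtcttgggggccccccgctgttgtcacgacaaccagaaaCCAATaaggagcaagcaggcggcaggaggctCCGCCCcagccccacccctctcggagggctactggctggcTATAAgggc
Uap1: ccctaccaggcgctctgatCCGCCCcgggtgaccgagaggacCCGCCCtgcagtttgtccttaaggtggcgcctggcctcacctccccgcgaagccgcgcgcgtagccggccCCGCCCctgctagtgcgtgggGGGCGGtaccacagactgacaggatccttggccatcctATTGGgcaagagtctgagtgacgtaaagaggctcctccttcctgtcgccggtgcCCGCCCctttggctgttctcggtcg
The Gfpt1 stretch held 4 GC boxes and 1 CCAAT box, at a GC content of 72.0%. Gfpt2 had a GC content of 57.6%, with 2 GC boxes and 2 CCAAT boxes. It was the only one of the 3 with the TATA motif, 9 bases before the start. Uap1 held 5 GC boxes and 1 CCAAT box, at a GC content of 67.2%. Over all 32851 promoter entries the median GC content was 52.4%, and 32.7% held a GC box, 33.8% a CCAAT box and 22.8% TATAA on either strand. TGACGTG, the core bound by the unfolded protein response factors XBP1 and ATF6, was in none of the 6 matched members' stretches and in 1.65% of all entries. These matches describe letters only.

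At the entry of the pathway the 2 amidotransferase transcripts overlapped between the groups. Gfpt1, on chromosome 6 from 87042846 to 87092207 (GRCm38), was at 2.96, 3.07, 3.12, 4.30 and 3.37 FPKM in PCOS hearts, against 4.52, 4.01, 3.73, 3.80, 3.47 and 3.002 FPKM in control hearts. PCOS replicate 4 was the highest PCOS heart, the other 4 lay below the control median, and 4 of 5 PCOS values lay inside the control range. The log2 difference was −0.12 (SE 0.10, 95% confidence interval −0.33 to 0.08). Gfpt2, on chromosome 11 from 49794155 to 49838620, was at 5.04, 4.45, 4.39, 4.77 and 5.91 FPKM in PCOS hearts, against 5.98, 3.62, 3.73, 2.73, 5.08 and 5.16 FPKM in control hearts. All 5 PCOS values lay inside the control range, which was wide, from control replicate 4 at the bottom to control replicate 1 at the top. Its log2 difference was 0.16 (SE 0.14, 95% confidence interval −0.15 to 0.47), and 0.06 without control replicate 4.

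In FPKM, Gfpt2 outweighed Gfpt1 in every PCOS heart, on lengths of 2986 and 6248 bases. In whole reads Gfpt1 was above Gfpt2 in every library, so the order, share and sum of the pair rest on these lengths. The share of Gfpt2 in the pair's FPKM was 59.4 ± 4.42% in PCOS hearts (SD, n = 5) and 53.1 ± 8.08% in control hearts (SD, n = 6). Control replicates 2 and 4 had 47.4% and 41.8%. The summed level of both amidotransferases was 8.28 ± 0.849 FPKM in PCOS hearts and 8.14 ± 1.34 FPKM in control hearts. The coefficient of variation of Gfpt2 among controls was 27.7%, against 7.40% from read counting alone at its mean of reads. For Gfpt1 these were 13.6% and 5.81%. Among PCOS hearts the order was the other way, at 12.5% for Gfpt2 and 16.2% for Gfpt1. The coding sequences of the 2 genes are identical at 72.1% of aligned bases, and the longest run shared by their GENCODE transcripts is 23 bases. An annotated lncRNA, Gm36507, spans the whole of Gfpt2, and the sources used here do not say which strand was counted, so reads of the 2 cannot be told apart.

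The 2 middle steps had mean differences of opposite sign, and both intervals reached past 0. Gnpnat1, on chromosome 14 from 45376421 to 45388987, was at 2.17, 2.62, 2.65, 2.67 and 2.19 FPKM in PCOS hearts, against 2.25, 2.98, 2.80, 3.01, 3.01 and 3.56 FPKM in control hearts. All 5 PCOS hearts lay below the control median; control replicate 1 lay among them and control replicate 6 was the highest of all. The log2 difference was −0.18 (SE 0.09, 95% confidence interval −0.37 to 0.01). Pgm3, on chromosome 9 from 86552476 to 86571878, was at 1.35, 1.53, 1.37, 1.85 and 1.48 FPKM in PCOS hearts, against 1.08, 1.44, 1.37, 1.32, 1.19 and 0.893 FPKM in control hearts. All 5 PCOS hearts lay above the control median, and 2 of them lay inside the control range. Its log2 difference was 0.19 (SE 0.09, 95% confidence interval −0.01 to 0.38). Control replicate 6, the library with liver transcripts, was at the far end of the controls in both genes. These are also the members with the fewest reads, 88 to 137 for Gnpnat1 and 53 to 111 for Pgm3, where counting alone gives a coefficient of variation of 9.64% and 10.98%. Without that library the differences were −0.14 for Gnpnat1 and 0.14 for Pgm3. Annotated neighbours overlap both genes, Styx over 464 bases of Gnpnat1 and Dop1a over 3331 bases of Pgm3.

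**Figure D1:**
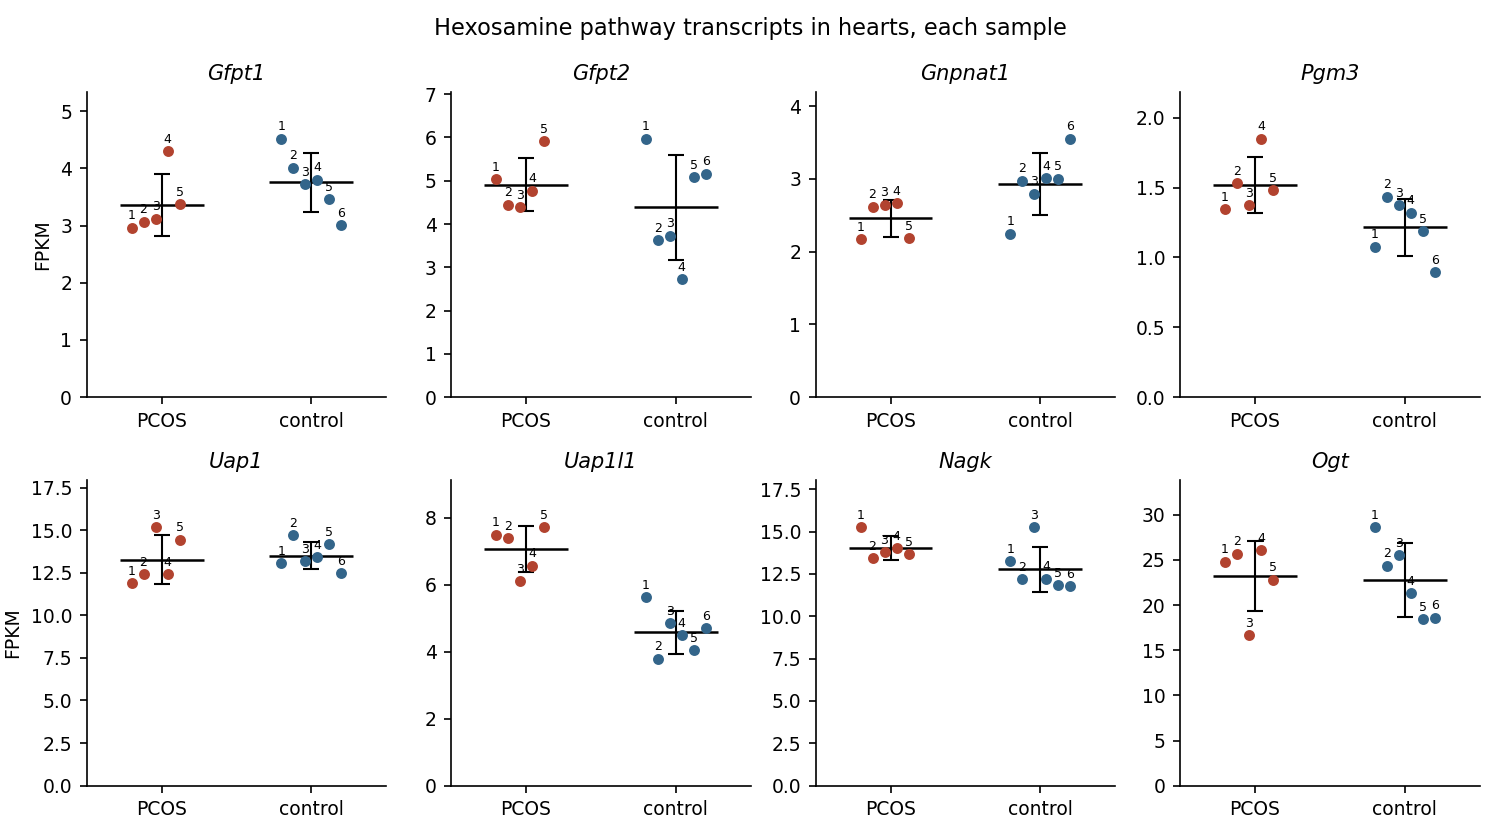
Levels of the 8 transcripts in each heart, in FPKM on axes that start at 0, with PCOS samples in red and controls in blue, numbers giving the replicate, lines the group mean and bars 1 SD. Only for Uap1l1 do all 5 PCOS hearts, at 6.10 to 7.72 FPKM, lie above all 6 controls, at 3.80 to 5.62 FPKM.

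At the last step the paralogs parted: the groups were intermixed for Uap1 and apart for Uap1l1, which was higher in PCOS hearts. Uap1, on chromosome 1 from 170141223 to 170174964, was at 11.9, 12.4, 15.2, 12.4 and 14.4 FPKM in PCOS hearts, against 13.1, 14.7, 13.2, 13.4, 14.2 and 12.47 FPKM in control hearts. The PCOS hearts spread wider, with replicate 3 above and replicates 1, 2 and 4 below the whole control range. The log2 difference was −0.03 (SE 0.07, 95% confidence interval −0.18 to 0.13). Uap1l1, on chromosome 2 from 25361489 to 25365682, was at 7.49, 7.39, 6.10, 6.56 and 7.72 FPKM in PCOS hearts, against 5.62, 3.80, 4.84, 4.50, 4.04 and 4.70 FPKM in control hearts. The lowest PCOS heart, replicate 3, lay above the highest control, replicate 1, and control replicates 2 and 5 were the lowest. Groups that did not overlap in this direction were found for 0.45% of tested rows. The means were 7.06 ± 0.688 FPKM (SD, n = 5) in PCOS hearts and 4.58 ± 0.645 FPKM (SD, n = 6) in control hearts, a ratio of 1.54, and the log2 difference was 0.53 (SE 0.09). Among the 10891 tested rows, ordered from highest to lowest in PCOS hearts, this difference stood at place 44. In bulk tissue more RNA per cell and more cells of a type that carries the transcript cannot be told apart.

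The reads behind Uap1l1 numbered 171, 159, 148, 144 and 179 in PCOS libraries, against 124, 89, 116, 96, 81 and 102 in control libraries. Counting alone gives a coefficient of variation of 8.84% at the mean of reads over all 11 libraries. That mean lies between the PCOS and the control reads, so counting alone gives less in PCOS libraries and more in control libraries. The observed coefficient was 9.76% in PCOS hearts and 14.1% in control hearts. The coding sequences of Uap1l1 and Uap1 are identical at 65.3% of aligned bases and no run longer than 15 bases is shared between their GENCODE transcripts. The length behind the Uap1l1 values was 1690 bases, while its GENCODE transcript has 3349, so its level relative to other genes depends on the transcript model.

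The share of Uap1l1 in the pair and the pair's sum include the values by which the pathway was chosen, so both are descriptions. Uap1l1 made up more of the pair in most PCOS hearts. Its share of the FPKM of Uap1 and Uap1l1 was 38.7, 37.3, 28.7, 34.6 and 34.9% in PCOS hearts, against 30.1, 20.5, 26.9, 25.1, 22.2 and 27.4% in control hearts, where control replicate 1 lay above PCOS replicate 3. The summed level of the pair was 20.3 ± 1.34 FPKM in PCOS hearts and 18.1 ± 0.538 FPKM in control hearts. The lowest PCOS sum, 18.97 FPKM, lay above the highest control sum, 18.69 FPKM. How often sums of 2 rows part the groups in this way was not tested. Shares and sums rest on the lengths used, 1690 bases for Uap1l1 and 3333 for Uap1. Their longest GENCODE transcripts have 3349 and 2311 bases, and the sums were not compared with other lengths. The summed level of the genes from Gfpt1 to Uap1, without Uap1l1, was 25.5 ± 1.71 FPKM in PCOS hearts and 25.8 ± 1.202 FPKM in control hearts.

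Nagk, the salvage kinase, had a slightly higher mean in PCOS hearts, with overlap of the groups. It lies on chromosome 6 from 83794983 to 83802556 and was at 15.25, 13.5, 13.8, 14.0 and 13.7 FPKM in PCOS hearts, against 13.3, 12.2, 15.27, 12.2, 11.9 and 11.8 FPKM in control hearts. All 5 PCOS hearts lay above the control median, but control replicate 3 was above every PCOS heart. The log2 difference was 0.13 (SE 0.07, 95% confidence interval −0.02 to 0.28).

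Ogt, which uses the pathway's product, had the highest coefficient of variation of the 8 members in PCOS hearts. It lies on chromosome X from 101640011 to 101684351 and was at 24.8, 25.7, 16.6, 26.1 and 22.8 FPKM in PCOS hearts, against 28.6, 24.4, 25.5, 21.3, 18.4 and 18.6 FPKM in control hearts. PCOS replicate 3 was the lowest of the 11 and control replicate 1 the highest. The log2 difference was 0.02 (SE 0.13, 95% confidence interval −0.26 to 0.31), and its sign changed in 8 of 20 alternative settings. Counting alone gives Ogt a coefficient of variation of 2.43%, against an observed 16.7% in PCOS hearts and 17.9% in control hearts. Oga, the hydrolase that removes O-GlcNAc, was at 17.2 ± 1.11 FPKM in PCOS hearts and 18.5 ± 1.31 FPKM in control hearts (log2 difference −0.10, SE 0.07, adjusted p = 0.771, limma). The ratio of Ogt to Oga was 1.51, 1.501, 0.911, 1.41 and 1.43 in PCOS hearts, against 1.51, 1.23, 1.39, 1.13, 0.962 and 1.16 in control hearts.

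None of the 7 members other than Uap1l1 passed the limma fit; their adjusted p ran from 0.738 to 0.969, and none of the 7 was under an unadjusted p of 0.05, as 6.68% of all tested rows were. Their intervals leave room for changes of the sizes given above, so the 7 transcripts are not shown to be equal in the groups. None of the 7 was called in any of the alternatives that tested it, 20 at most.

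**Figure D2:**
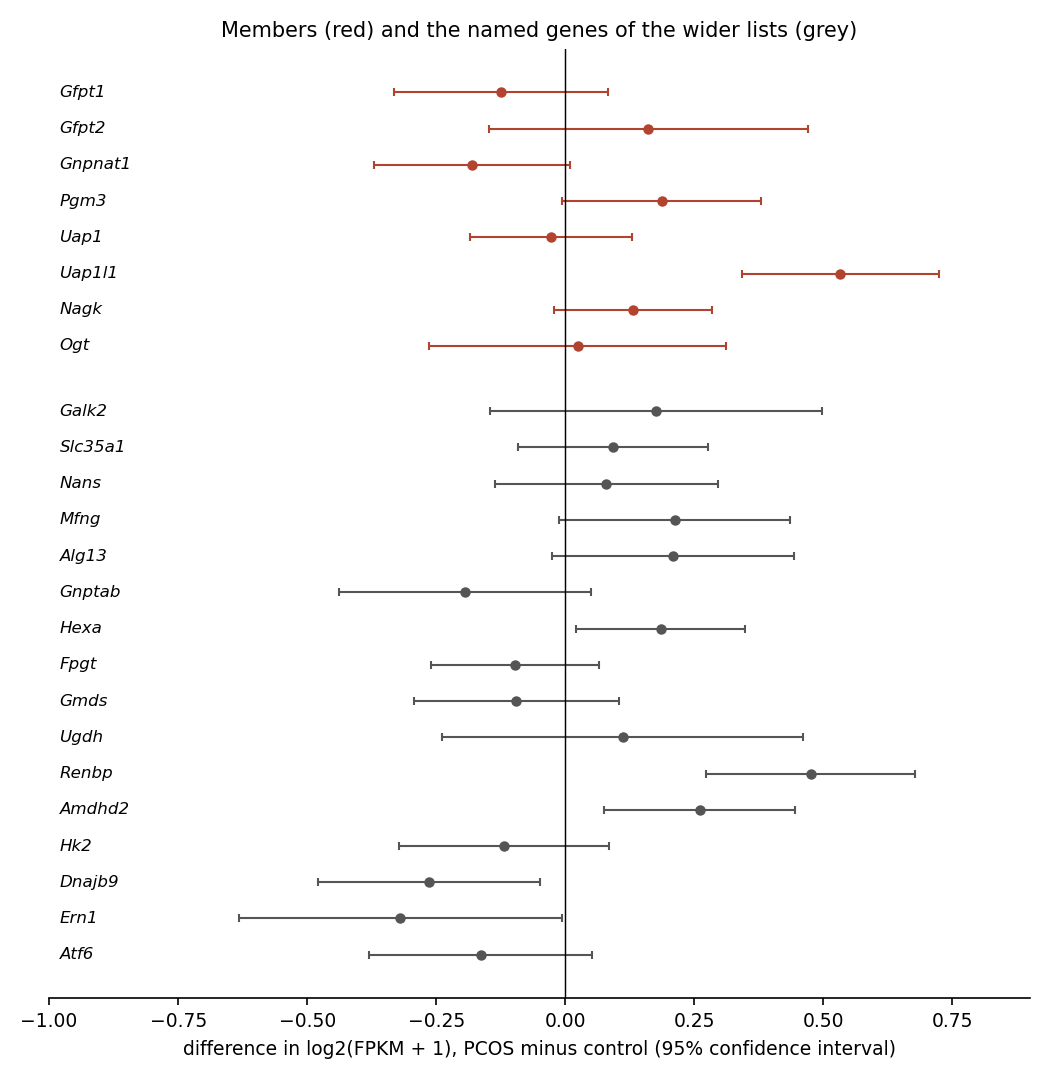
Differences in log2(FPKM + 1), PCOS minus control, with 95% confidence intervals from limma, for the 8 members in red and 16 named genes of the wider lists in grey. Uap1l1 stands at 0.53 and Renbp at 0.48, while the other members lie between −0.18 and 0.19.

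Across the 11 hearts the order of levels was Ogt at 23.0 FPKM on average, Uap1 at 13.4, Nagk at 13.3, Uap1l1 at 5.71, Gfpt2 at 4.62, Gfpt1 at 3.58, Gnpnat1 at 2.72 and Pgm3 at 1.35. Ogt was above Uap1, Nagk above Uap1l1 and Gnpnat1 above Pgm3 in all 11 hearts, with ranges that did not overlap. Uap1 was above Nagk in only 6 of 11 hearts, and their means were 13.3 and 14.0 FPKM in PCOS hearts and 13.5 and 12.8 FPKM in control hearts. Uap1l1 exceeded Gfpt2 in 8 of 11 hearts, Gfpt2 exceeded Gfpt1 in 9 and Gfpt1 exceeded Gnpnat1 in 10, each with overlapping ranges. The places of Uap1l1, Gfpt2 and Gfpt1 rest on the transcript lengths given above.

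Within the groups, Uap1l1 varied like a set of genes found mostly on chromosome 7. After each group's mean was removed from log2(FPKM + 1), the 5 tested genes with the highest Pearson correlation over the 11 samples were Slc1a5, Qpctl, Slx1b, Mrvi1 and Fam20a. Slc1a5, a transporter of glutamine and other neutral amino acids, had r = 0.936 (Spearman rho 0.909) and lies on chromosome 7 from 16781334 to 16798274. Qpctl, a Golgi glutaminyl cyclase, had r = 0.928 (rho 0.909) and lies nearby, from 19140217 to 19149196. Slx1b, part of a structure-specific endonuclease, had r = 0.911 (rho 0.936), and Mrvi1, a target of cGMP-dependent protein kinase, had r = 0.902 (rho 0.9). Fam20a, a pseudokinase of the secretory pathway, had r = 0.888 (rho 0.818) and lies on chromosome 11. Thus 4 of the 5 genes lie on chromosome 7, which holds 7.53% of the tested rows with a chromosome, while Uap1l1 itself lies on chromosome 2. The genes were picked as the closest of all tested rows, and all share the same libraries, so these values describe likeness only.

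**Figure D3:**
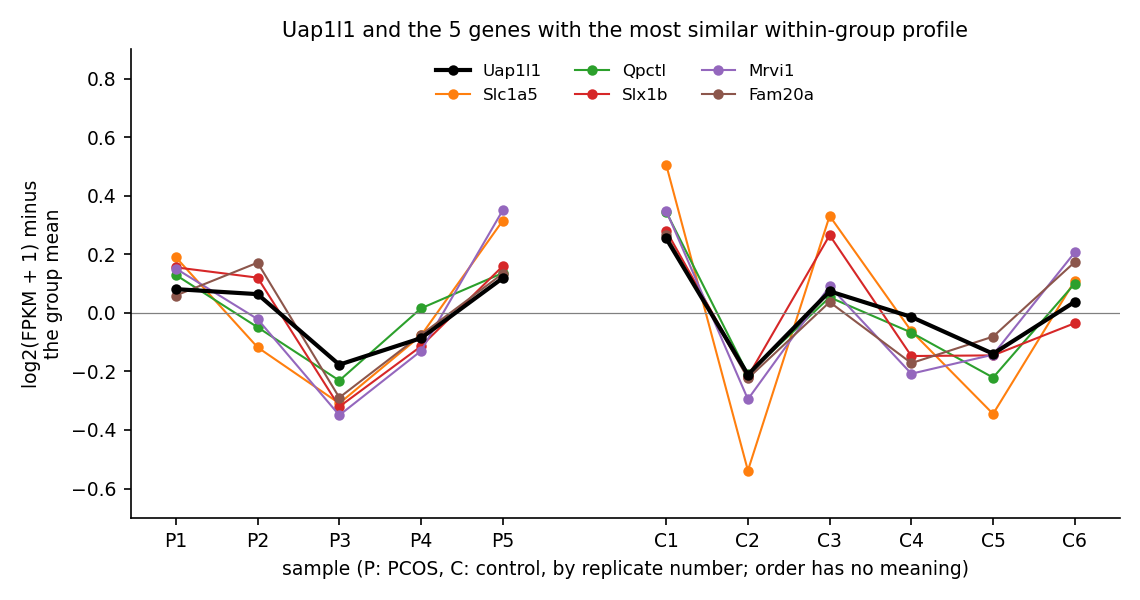
Level of Uap1l1 (black) and of the 5 genes with the most similar profile, as log2(FPKM + 1) minus the mean of the sample's group, in PCOS samples P1 to P5 and controls C1 to C6. All 6 genes are below their group mean in PCOS replicate 3 and control replicates 2 and 5, and above it in control replicate 1.

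None of the 5 was called in the limma fit, which does not show them to be equal in the groups. Slc1a5 was at 12.8 ± 2.41 FPKM in PCOS hearts and 10.6 ± 3.12 FPKM in control hearts (log2 difference 0.28, adjusted p = 0.753), and the adjusted p of the other 4 ran from 0.770 to 0.958. Control replicates 2 and 5, the libraries high in Irs2, were the lowest controls in Uap1l1 too. Without these 2 libraries the Uap1l1 difference was 0.45 (SE 0.09), and without control replicates 2, 5 and 6 it was 0.43 (SE 0.10). In both cases the row was no longer among those called (adjusted p = 0.2 and 0.206). Among the other members, the same centred correlation with Uap1l1 ran from −0.618 for Gnpnat1 and −0.526 for Uap1 to 0.55 for Ogt.

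**Figure D4:**
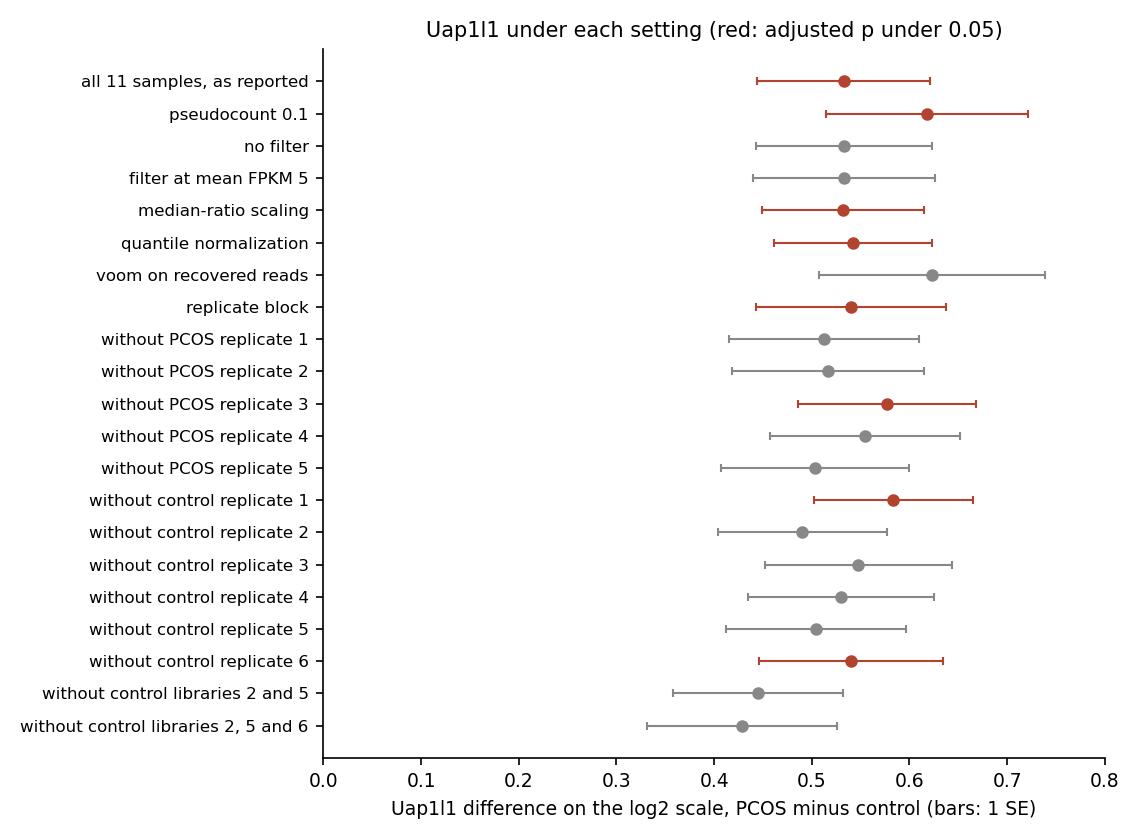
Difference of Uap1l1 on the log2 scale, PCOS minus control, with bars of 1 SE, for the fit of all 11 samples and 20 alternatives; red marks settings in which the row was among those called. The difference lies between 0.43 and 0.62 in all 20, and the row was called in 7 of them.

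Around the 8 members, 72 genes of supply, branching, use, breakdown and regulation were listed, of which 65 were in the table and 59 were tested. None was called by limma, or by voom on the recovered reads, where 12 of 10876 rows (0.11%) were called. At an unadjusted p under 0.05, 5 of the 59 were higher and 3 lower in PCOS hearts, against 3.51% and 3.17% of all tested rows. The median log2 difference was −0.00065 over the 59 genes and 0.0017 over all 10891 rows, and 29 of the 59 were above 0.

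In the list of supply and amino sugar breakdown, 9 of 11 genes were tested, 4 with a difference above 0 and 5 below (median −0.02). Renbp, the epimerase between N-acetylglucosamine and N-acetylmannosamine, came nearest to a call. It was at 4.39, 4.38, 4.37, 2.93 and 3.96 FPKM in PCOS hearts, against 2.54, 2.95, 2.19, 2.46, 2.85 and 2.53 FPKM in control hearts. PCOS replicate 4 lay just under control replicate 2, and the other 4 PCOS hearts lay above all controls. The log2 difference was 0.48 (SE 0.09, adjusted p = 0.106, limma) on 44 to 89 reads a library. Renbp passed without PCOS replicate 4 (log2 difference 0.56, adjusted p = 0.011) and in none of the other 18 alternatives that tested it, where the adjusted p reached 0.365. Amdhd2, the deacetylase of N-acetylglucosamine 6-phosphate, was at 7.19 ± 0.993 FPKM in PCOS hearts and 5.82 ± 0.548 FPKM in control hearts. Its log2 difference was 0.26 (SE 0.09, adjusted p = 0.738, limma). Hk2, a hexokinase, was at 67.7 ± 2.81 FPKM in PCOS hearts and 74.2 ± 10.7 FPKM in control hearts (log2 difference −0.12, SE 0.09, adjusted p = 0.795).

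Lysosomal enzymes that free N-acetylhexosamines from glycans were split, with 5 of 11 differences above 0 and 6 below and a median of −0.04. Hexa, which encodes a subunit of a lysosomal hexosaminidase, was at 36.7, 36.3, 47.9, 43.1 and 41.4 FPKM in PCOS hearts, against 35.1, 33.7, 37.5, 36.2, 38.8 and 34.0 FPKM in control hearts. The groups overlapped, with PCOS replicate 3 the highest and control replicate 2 the lowest. Hexa differed by 0.18 on the log2 scale (SE 0.08, adjusted p = 0.738, limma).

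**Figure D5:**
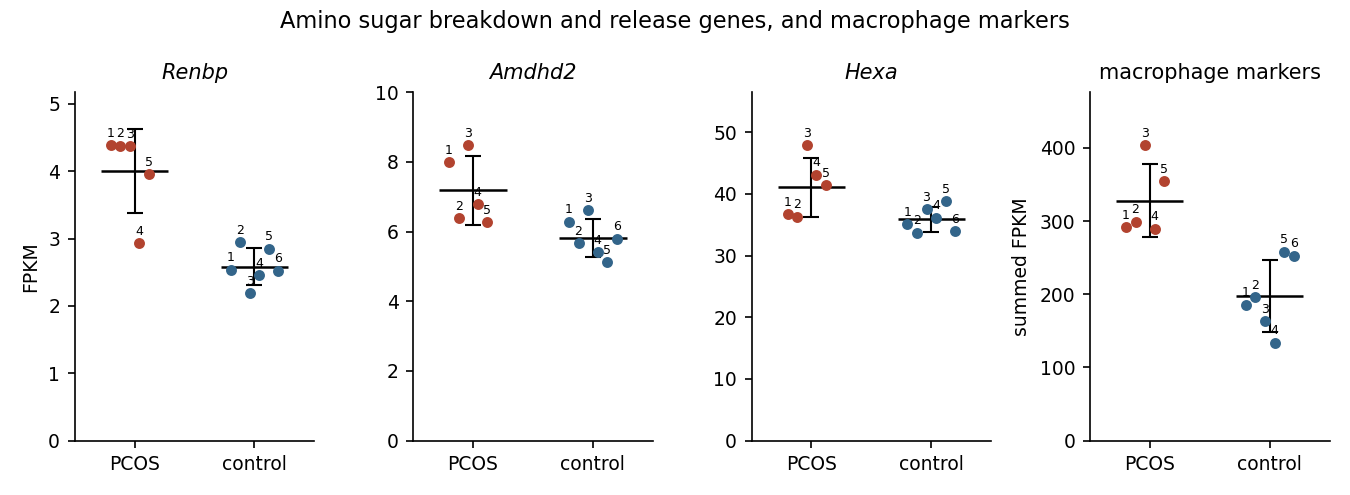
Levels of Renbp, Amdhd2 and Hexa in FPKM, and the summed FPKM of 12 macrophage and monocyte markers, in each heart, with PCOS samples in red and controls in blue, lines at the mean and bars of 1 SD. Renbp groups meet at 2.93 and 2.95 FPKM, and the marker sums of PCOS hearts, from 289.8 FPKM, lie above those of controls, up to 258.1 FPKM.

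The list of UDP-GlcNAc users, which also held the hydrolase Oga, had no called gene among 20 tested. Of the differences, 8 were above 0 and 12, with Oga among them, were below (median −0.02). Mfng, a fringe enzyme that adds N-acetylglucosamine to Notch, differed by 0.21 (SE 0.10), Alg13, a subunit of an enzyme of early N-glycan assembly, by 0.21 (SE 0.11) and Gnptab, which starts the mannose 6-phosphate tag of lysosomal enzymes, by −0.20 (SE 0.11), with adjusted p of 0.738, 0.738 and 0.752 in limma. The hyaluronan synthases Has1, Has2 and Has3 and Mgat3 were below the level tested. The branches to UDP-GalNAc and sialic acid had 6 tested genes (median 0.07), with Galk2, a kinase of N-acetylgalactosamine, at 0.18 (SE 0.15), Slc35a1, the Golgi carrier of CMP-sialic acid, at 0.09 (SE 0.09) and Nans, a sialic acid synthase, at 0.08 (SE 0.10); the lowest adjusted p was 0.802. Makers of other nucleotide sugars had 5 tested genes (median −0.05, lowest adjusted p = 0.793), led by Fpgt at −0.10, Gmds at −0.09 and Ugdh at 0.11.

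Regulators and targets of the unfolded protein response, which can raise transcripts of the hexosamine pathway, had 8 tested genes, 5 with a difference above 0 and 3 below, and a median of 0.02. The 3 below 0 had the smallest p. Dnajb9, a chaperone partner of the endoplasmic reticulum, was at 22.7 ± 4.24 FPKM in PCOS hearts and 27.1 ± 1.37 FPKM in control hearts (log2 difference −0.26, SE 0.10, adjusted p = 0.738, limma). Ern1, which encodes the sensor IRE1, differed by −0.32 (SE 0.15) and Atf6 by −0.16 (SE 0.10), with adjusted p of 0.738 and 0.753.

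Of the cell types looked at, macrophages had summed markers that did not overlap between the groups with all 11 libraries. Macrophage and monocyte markers, 12 of 14 listed and all above 0 in every library, summed to 289.8 to 403.8 FPKM in PCOS hearts and 133.8 to 258.1 FPKM in control hearts. Of single tested rows, 0.45% had all PCOS hearts above all controls. Limma called 3 of the 9 tested markers, Cd68, Ms4a7 and Trem2, against 0.138% of all tested rows. The list was drawn with earlier results of these data known, so nothing is read from this count. Adgre1 and Csf1r were listed but had no matched row. The 3 below the level tested, Fcgr1, Itgam and Ccr2, had lower means in PCOS hearts. Lyz2 was the largest part of the sum, at 132.8 to 211.9 FPKM in PCOS hearts and 60.89 to 121.3 FPKM in control hearts. Erythroid markers, 6 of 6 above 0 in every library, summed to 849.5 to 2229 FPKM in PCOS hearts and 530.3 to 1528 FPKM in control hearts. These sums overlapped, but all 6 had higher means in PCOS hearts. Of the 5 tested, none was called (median log2 difference 0.75). All 5 were higher at an unadjusted p under 0.05 in limma, as 3.51% of all tested rows were. PCOS replicate 3, with the highest macrophage sum, had Hexa at 47.9, Renbp at 4.37 and Uap1l1 at 6.10 FPKM. PCOS replicate 4, with the lowest sum of the PCOS hearts, had Hexa at 43.1, Renbp at 2.93 and Uap1l1 at 6.56 FPKM. Control replicates 5 and 6 had the highest macrophage sums among controls. Their Hexa was at 38.8 FPKM, the highest control value, and 34.0 FPKM. Renbp was at 2.85 and 2.53 FPKM in these 2 libraries, and Uap1l1 at 4.04 and 4.70 FPKM. The part of these cells, and of erythroid cells, in the differences of Uap1l1, Renbp and Hexa was not tested. Sums of fibroblast, endothelial and smooth muscle and pericyte markers overlapped, at 261.3 to 307.0, 245.4 to 315.3 and 254.1 to 344.2 FPKM in PCOS hearts and at 165.5 to 350.7, 207.7 to 358.2 and 210.6 to 357.7 FPKM in control hearts; without control replicate 6 the highest control sum of smooth muscle and pericyte markers was 250.8 FPKM, below all PCOS hearts. Neutrophil and lymphocyte markers summed to at most 9.75 and 6.72 FPKM in PCOS hearts and 17.2 and 7.66 FPKM in control hearts, with Ly6g listed at 0 in all 11 libraries and Retnlg in some. Adipocyte markers summed to at most 0.416 FPKM in PCOS hearts and 3.69 FPKM in control hearts, and all 3 were at 0 in some libraries.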

How the data were processed

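Heart RNA was measured in 5 PCOS and 6 control samples. Extraction used mirVana and libraries TruSeq stranded mRNA, per the labels' protocols. Named in the submitters' processing notes are the build mm10, HISAT2 2.2.1 as a read aligner, HTSeq 0.13.5 as a counter, Trimmomatic 0.38, FastQC 0.11.9, DESeq2 1.18.1 and R 3.4.1; settings are not given in the sources used here. The authors deposited gene-level FPKM, 1 column per sample, which was used without rescaling; a few abundant transcripts can therefore shift others.

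Symbols and positions came from RefSeq on GRCm38.p6, the assembly of mm10: the version of the accession matched too in 13175 rows, differed in 5903, and 2800 rows got no symbol. Whole reads were recovered from the FPKM steps in all 15939 rows above 0 in at least 3 samples, within 0.15 of a whole number. Intervals cover counting error and spread between libraries only.

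The fit was limma 3.58.1 in R 4.3.3 (moderated with a mean-variance trend) on log2(FPKM + 1), for the 10891 rows whose FPKM averaged 1 or more, with Benjamini-Hochberg adjustment over those rows; called means an adjusted p under 0.05. The scale understates changes of low genes. The fit was tested on simulated data. Differences are PCOS minus control. The members, lists, tests and alternatives were chosen with earlier results of these data known. Named genes were the 8 members, the 3 smallest p of each wider list, any called gene of those lists and the 5 genes most like Uap1l1; Irs2, Oga and overlapping neighbours were outside that rule and chosen after their values were seen. Of the 18 named genes of the wider lists, 2 are not reported here. Alternatives were another pseudocount, filters, scalings, voom, a replicate block and left-out libraries.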

Additional observations from a re-analysis of the deposited data

Results flagged for a closer look

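Gmds, the first enzyme of GDP-fucose synthesis, was at 2.74 FPKM in PCOS replicate 2, below the other PCOS hearts at 3.25 to 3.37 FPKM, a gap that covered 0.816 of the group's range against a critical value of 0.71 (Dixon). It was the only such sample among 52 groups of values, the 8 members and 18 named genes in each group of hearts; chance alone marks about 1 group in 20.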

How the results depend on the processing

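The Uap1l1 difference kept its direction in all 20 alternatives. It was no longer among the called rows with no filter (0.533, adjusted p = 0.085) and with rows kept from 5 FPKM on average (0.533, adjusted p = 0.0652), with voom on recovered reads (0.623, adjusted p = 0.0721), without control libraries 2 and 5 (0.445, adjusted p = 0.2) and, chosen after seeing the data, without control libraries 2, 5 and 6 (0.428, adjusted p = 0.206). With each of the 11 libraries left out in turn it ran from 0.491 to 0.584 (adjusted p from 0.0119 to 0.154), and the call was kept in 3 of 11, without PCOS replicate 3, control replicate 1 or control replicate 6. The number of called members was accordingly 0 in these 5 settings and 0 to 1 with a library left out. The number of called rows was 5 with the filter at 5, 26 without control libraries 2, 5 and 6, and 10 to 32 with a library left out, 32 without control replicate 6. The number of called genes of the wider lists was 0 to 1 with a library left out, the 1 being Renbp.

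The replicate number as a block, on replicates 1 to 5, called 64 rows, 44 higher and 20 lower, against 32 on the same 10 libraries without the block. The deviations of same-numbered samples from their group means correlated at 0.133, -0.0321, -0.118, 0.254 and 0.101. Of the 5 PCOS samples, 0 correlated best with the control of its own number. The labels do not say what the number stands for, and whether same-numbered samples share more than it was not tested. Uap1l1 stayed called under the block (0.540, adjusted p = 0.0492).

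Among differences near 0 the sign of Ogt turned under the block (-0.0286) and without control libraries 2 and 5 (-0.0175) or 2, 5 and 6 (-0.119), and with a library left out it ran from -0.0311 to 0.134. Uap1 was at 0.0187 without control libraries 2 and 5 and from -0.0747 to 0.0074 with a library left out. Ugdh ran from -0.0151 to 0.221 with a library left out. With a library left out, Gfpt1 ran from -0.197 to -0.0799, Gfpt2 from 0.0612 to 0.242, Galk2 from 0.0934 to 0.248, Slc35a1 from 0.0444 to 0.127 and Nans from 0.0294 to 0.138. The cause was not tested. The other 5 members and the other 17 named genes kept their direction in every alternative that tested them. Of the members, Pgm3 and Gnpnat1 had the fewest reads, and of the other named genes Alg13, with 23 to 44 a library.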
